A study of Mus musculus with 14 samples.

Results

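The 10 genes described here are Isg15, Usp18, Herc6, Uba7, Ube2l6, Irf7, Irf9, Stat2, Bst2 and Mx1, which make up the ISG15 conjugation system together with transcription factors and effectors of the interferon response. They were fixed by name, with earlier results of these data known, so how many of them are called is no independent evidence. Each was read by the probe set whose annotation gives that symbol and no other, and each of the 10 had exactly 1 such probe set, so all 10 were measured among the 22180 genes tested. The probe sets were 17434023 for Isg15, 17462437 for Usp18, 17458962 for Herc6, 17521541 for Uba7, 17372604 for Ube2l6, 17497813 for Irf7, 17300591 for Irf9, 17238367 for Stat2, 17510345 for Bst2 and 17332531 for Mx1.

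Liver RNA of 14 male C57BL/6 mice was measured on 14 Affymetrix whole-transcript arrays, 1 liver per array. Every mouse, controls included, carried Alb-cre+, a Cre recombinase transgene driven by the albumin promoter in hepatocytes, and the mice differed in how many floxed, that is Cre-removable, copies of Lmna they had. Lmna codes for lamin A and lamin C, which line the inner face of the nuclear envelope. Livers of LMNA flx/flx; Alb-cre+ mice are called KO, those of LMNA flx/+; Alb-cre+ mice HET and those of LMNA +/+; Alb-cre+ mice WT. Lmna was not measured by cell type, so its state in the other cell types of the liver is not known from these data. On standard chow for 14 weeks there were 3 KO livers (arrays H1, H2 and I1, all from mice 38.9 weeks old), 3 HET livers (F1, F2 and P1, at 26.4, 26.4 and 24 weeks) and 2 WT livers (G1 and N1, at 27 and 24.6 weeks). On a high-fat Surwit diet for 14 weeks, with 42 g/L of carbohydrate in the drinking water (55% fructose and 45% sucrose; HFD below), there were 3 KO livers (C2, C3 and C4, all at 35.3 weeks) and 3 HET livers (A2, B1 and B2, at 30.4, 30 and 30 weeks). KO mice were older than HET mice by 13.3 weeks on chow and by 5.17 weeks on HFD, and older than WT mice by 13.1 weeks, so age and genotype cannot be told apart.

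ISG15 is a small protein of the ubiquitin family that interferon-treated cells attach to other proteins. Its chain of enzymes runs from the activating enzyme UBA7 through the conjugating enzyme UBE2L6 to a ligase, which in the mouse is chiefly HERC6, while the protease USP18 removes ISG15 again and also damps signalling from the type I interferon receptor. Interferon binding at that receptor activates STAT2, which acts with IRF9 in a complex that binds interferon-stimulated response elements near the starts of target genes, and IRF7 is both such a target and a factor that drives interferon genes.

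The sequence just upstream of a gene is where such elements lie, so the promoter windows of the members were searched for them. The windows are RefSeq's for mouse build GRCm38.p6 and run from 250 bases before to 50 bases after a gene's start. For 8 of the 10 members there were windows, 9 in all. Usp18 and Mx1 had no window and were not searched. The search was for the half-site GAAA, any 2 bases and a second GAAA on either strand, and for the gamma-activated site TTCNNNGAA. The response element was found in 3 of the 9 windows (33.3%), those of Isg15, Bst2 and Stat2, against 1131 of 32851 windows of all genes (3.44%). The gamma-activated site was found in the Bst2 window alone among the members (11.1% of the 9), against 8.3% of all windows, and there it overlaps the first response element match. In the windows printed here, 5′ to 3′ along the gene's own strand, capitals mark the response element matches.
Isg15, chr4:156200769-156201068, minus strand: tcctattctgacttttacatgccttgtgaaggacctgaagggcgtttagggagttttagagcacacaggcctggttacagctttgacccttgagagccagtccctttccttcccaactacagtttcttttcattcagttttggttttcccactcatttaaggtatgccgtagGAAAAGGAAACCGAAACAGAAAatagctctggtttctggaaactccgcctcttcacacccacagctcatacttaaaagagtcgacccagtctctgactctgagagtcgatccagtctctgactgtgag
Bst2, chr8:71537423-71537722, minus strand: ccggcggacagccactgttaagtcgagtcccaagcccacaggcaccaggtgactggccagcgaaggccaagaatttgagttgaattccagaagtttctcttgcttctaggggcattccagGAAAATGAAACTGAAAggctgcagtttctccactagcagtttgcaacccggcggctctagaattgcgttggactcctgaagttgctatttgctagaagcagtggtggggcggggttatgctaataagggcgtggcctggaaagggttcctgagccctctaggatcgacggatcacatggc
Stat2, chr10:128270248-128270547, plus strand: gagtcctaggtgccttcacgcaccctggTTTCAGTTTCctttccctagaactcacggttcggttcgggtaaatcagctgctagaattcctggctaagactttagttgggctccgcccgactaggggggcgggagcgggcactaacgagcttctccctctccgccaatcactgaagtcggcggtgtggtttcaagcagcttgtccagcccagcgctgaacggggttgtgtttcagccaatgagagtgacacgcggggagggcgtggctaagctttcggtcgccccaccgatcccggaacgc
In Isg15 there were 3 overlapping matches from position -78 to -57 relative to the start, in Bst2 2 overlapping matches from -130 to -115, and in Stat2 1 match on the opposite strand from -222 to -213. A match is a stretch of letters and not a measured binding site.

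Lmna itself checks the labels in part, since which exon was floxed and where its single probe set lies are not given in the sources used here. Its log2 intensity was 3.85 ± 0.22 in KO livers on chow, 4.31 ± 0.08 in HET livers on chow and 4.47 ± 0.05 in WT livers (SD, n = 3, 3 and 2). On HFD it was 3.99 ± 0.09 in KO livers and 4.15 ± 0.13 in HET livers (SD, n = 3 each). The fall against WT passed the test (-0.62 ± 0.14, limma adjusted p = 0.0393), and the difference from HET did not on chow (adjusted p = 0.0823) or on HFD (adjusted p = 0.517), while over both diets it did (-0.31 ± 0.09, adjusted p = 0.0386). Pairs of arrays within a group had Pearson correlations of 0.989 to 0.994 across genes, and pairs from different groups 0.980 to 0.994. Hepatocyte markers were bright in every group, with albumin (Alb) at 13.46 ± 0.01 in KO livers on chow and 13.43 ± 0.05 in HET livers on chow (SD, n = 3 each).

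The first comparison asked how the system differs between KO and HET livers on chow. All 10 members rose in KO livers, between 1.54-fold (Stat2) and 12.7-fold (Usp18), and for each of the 10 every KO liver lay above every HET liver. At an adjusted p under 0.05 the same test called 1.44% of all genes higher, and 9.59% of all genes had KO values wholly above the HET values. The median change over the members was 1.52 on the log2 scale, against -0.01 over all genes tested. Changes are differences of group means of log2 intensity with the standard error of limma, and adjusted p-values are Benjamini-Hochberg values over all 22180 genes.

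**Figure D1:**
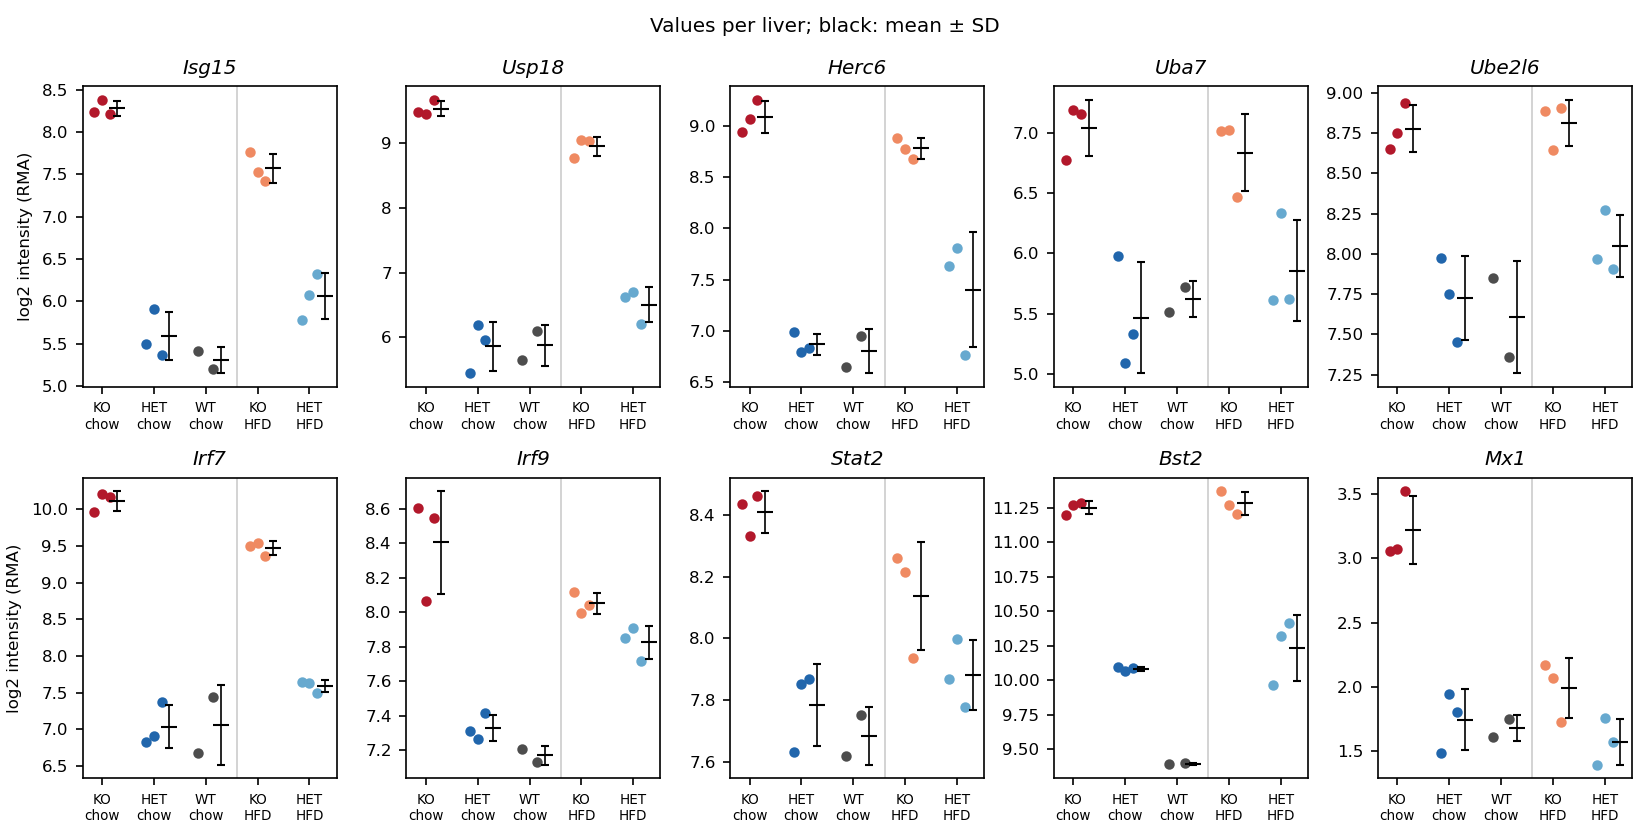
Log2 intensity (RMA) of each of the 10 members in every liver, with 1 point per liver and the group mean ± SD in black; the vertical axis is scaled for each gene, and the grey line divides chow from HFD. KO livers on chow lie above HET and WT livers on chow for every gene, and on HFD the KO and HET livers overlap for Stat2 and Mx1.

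Isg15, the modifier itself, read 8.24, 8.38 and 8.22 in the KO livers H1, H2 and I1, against 5.49, 5.91 and 5.36 in the HET livers F1, F2 and P1. The 3 KO livers lay within a narrow band, far above all HET livers. The change was 2.69 ± 0.17 (6.47-fold, adjusted p = 2.95e-06).

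Usp18, the protease that strips ISG15 from its targets, read 9.48, 9.44 and 9.67 in KO livers on chow, against 5.45, 6.19 and 5.96 in HET livers on chow. Its rise of 3.66 ± 0.19 had the smallest p of all 22180 genes in this comparison (adjusted p = 2.18e-06). The lowest KO value lay far above the highest HET value, and no other member changed as much.

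The enzymes that attach ISG15 rose too. Uba7, the activating enzyme, read 6.77, 7.19 and 7.16 in KO livers on chow, against 5.98, 5.09 and 5.33 in HET livers on chow, a change of 1.57 ± 0.25 (adjusted p = 0.00604). Ube2l6, the conjugating enzyme, read 8.65, 8.75 and 8.93 in KO livers, against 7.97, 7.75 and 7.45 in HET livers, a change of 1.05 ± 0.17 (adjusted p = 0.00586). Both genes varied more among HET livers than among KO livers, and in both the lowest KO value stayed above the highest HET value. Herc6, the main ISG15 ligase of the mouse, read 8.94, 9.07 and 9.25 in KO livers, against 6.99, 6.79 and 6.83 in HET livers, a change of 2.22 ± 0.21 (adjusted p = 1.26e-04).

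Among the regulators, Irf7 moved most. This interferon regulatory factor read 9.96, 10.21 and 10.17 in KO livers on chow, against 6.83, 6.91 and 7.37 in HET livers on chow, a change of 3.08 ± 0.18 (8.43-fold, adjusted p = 2.50e-06). Irf9, the DNA-binding partner of STAT2, read 8.61, 8.06 and 8.55 in KO livers, against 7.31, 7.26 and 7.41 in HET livers, a change of 1.08 ± 0.13 (adjusted p = 9.08e-04). One KO liver, H2, was about midway between the other KO livers and the HET livers for Irf9. Stat2, the signal transducer of the same complex, had the smallest rise of the members: it read 8.44, 8.33 and 8.46 in KO livers, against 7.63, 7.85 and 7.87 in HET livers, a change of 0.63 ± 0.12 (adjusted p = 0.0157). Its call was lost without HET array F1 (adjusted p = 0.0697) or KO array I1 (adjusted p = 0.0719). It was also lost with each array centred on its median (0.51, adjusted p = 0.0661) and with only the groups compared (adjusted p = 0.0685).

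Both effectors rose as well. Bst2, the membrane protein tetherin that holds budding virus particles at the cell surface, read 11.20, 11.27 and 11.28 in KO livers on chow, against 10.09, 10.06 and 10.09 in HET livers on chow, a change of 1.17 ± 0.12 (adjusted p = 1.52e-04). Mx1, an antiviral GTPase for which C57BL/6 mice carry a defective allele, read 3.06, 3.07 and 3.52 in KO livers, against 1.48, 1.95 and 1.81 in HET livers, a change of 1.47 ± 0.17 (adjusted p = 5.13e-04). Mx1 was dim: it lay below the array's own median over all probe sets (2.21 to 2.30) in 11 of 14 arrays, and only the 3 KO livers on chow were above it.

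With age as a linear term, 1 of the 10 members (Irf7, 6.38 ± 0.72) was called in KO against HET on chow, with much larger standard errors. The estimates were 5.06 ± 1.20 for Usp18, 2.57 ± 1.40 for Herc6, 1.42 ± 0.75 for Bst2 and 1.33 ± 1.01 for Isg15, while that for Ube2l6 turned to -1.32 ± 0.85. Ages were the same within each KO group, so that fit takes the effect of age from the few weeks between HET and between WT mice and extends it over the gap to KO. Centring each array on its median shifted the median change of all genes to -0.13 and moved the share of called genes that were higher to 48.7%, against 75.1% without it, and 9 of the 10 members were still called higher.

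Against WT livers on chow the picture was the same in direction. All 10 members rose in KO livers and none of their ranges overlapped, where 1.24% of all genes were called higher and 15.1% were higher with no overlap. The median change was 1.70, against 0.00 over all genes. With the KO values as above, WT livers G1 and N1 read 5.66 and 6.11 for Usp18, a change of 3.65 ± 0.22 (adjusted p = 4.33e-06). They read 6.68 and 7.44 for Irf7, a change of 3.05 ± 0.21, and 5.42 and 5.20 for Isg15, a change of 2.97 ± 0.19. Bst2 was tightest, at 9.39 and 9.40 in WT livers, a change of 1.86 ± 0.13. Among the enzymes, WT livers read 6.65 and 6.95 for Herc6, 5.51 and 5.73 for Uba7 and 7.85 and 7.36 for Ube2l6. They read 7.62 and 7.75 for Stat2 and 1.61 and 1.75 for Mx1. Every one of these WT values lay below the lowest KO value on chow of its gene. KO livers are shared with the comparison against HET, so the 2 sets of changes are not independent. Up to 3 of these calls rested on single arrays. Uba7 was lost without WT array G1 (adjusted p = 0.147) or N1 (0.115) or KO array H2 (0.0848) or I1 (0.0859). Stat2 was lost without G1 (0.108), N1 (0.0673) or I1 (0.0531), and Ube2l6 without N1 (0.107). Fitted with only the groups compared, Ube2l6 (adjusted p = 0.0584), Irf9 (0.0549) and Stat2 (0.0702) were not called, nor was Stat2 after centring (0.0670). The age term left 1 of the 10 called (Irf7, 6.31 ± 0.71): Usp18 came to 5.02 ± 1.19, Bst2 to 2.11 ± 0.74, Irf9 to 1.43 ± 0.86 and Isg15 to 1.63, and Ube2l6 turned to -1.16 ± 0.84.

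One floxed copy was not told apart from none by this test. In HET against WT livers on chow limma called 0 of the 10 members, as it called 0% of all genes, and 1 member had an unadjusted p under 0.05. That member was Bst2, which read 10.09, 10.06 and 10.09 in HET livers and 9.39 and 9.40 in WT livers. Its values were tight within each group and apart between them, with a change of 0.69 ± 0.13 (limma adjusted p = 0.448), the 7th smallest p of all genes. Irf9 was also higher in HET livers without overlap, at 7.31, 7.26 and 7.41 against 7.21 and 7.13 in WT livers, and 10% of all genes were. The 95% intervals of the other changes allowed for Isg15 between -0.12 and 0.68 and for Usp18 between -0.49 and 0.45.

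On HFD 7 of the 10 members were called higher in KO than in HET livers, where 5.5% of all genes were, and 8 had KO values wholly above the HET values, as did 13.3% of all genes. The median change was 1.01, against -0.02 over all genes. Isg15 read 7.76, 7.53 and 7.43 in the KO livers C2, C3 and C4, against 5.78, 6.07 and 6.33 in the HET livers A2, B1 and B2, a change of 1.51 ± 0.17 (adjusted p = 1.90e-04). For Usp18 the values were 8.77, 9.04 and 9.02 in KO livers, against 6.62, 6.70 and 6.20 in HET livers, a change of 2.44 ± 0.19 (adjusted p = 1.64e-05). For Irf7 they were 9.50, 9.55 and 9.37 in KO livers, against 7.65, 7.63 and 7.49 in HET livers, a change of 1.88 ± 0.18 (adjusted p = 9.76e-05). As on chow, these 3 genes had the largest changes among the members.

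The enzyme chain was called as a whole on HFD too. Herc6 read 8.88, 8.78 and 8.68 in KO livers, against 7.63, 7.81 and 6.77 in HET livers, a change of 1.38 ± 0.21 (adjusted p = 0.00203). The HET liver B2 was well below the other HET livers for Herc6. Uba7 read 7.01, 7.03 and 6.47 in KO livers, against 5.61, 6.34 and 5.62 in HET livers, a change of 0.98 ± 0.25 (adjusted p = 0.0330). Ube2l6 read 8.89, 8.65 and 8.91 in KO livers, against 7.97, 8.27 and 7.91 in HET livers, a change of 0.76 ± 0.17 (adjusted p = 0.0146). For Uba7 the gap between the groups was small, since KO liver C4 lay close to HET liver B1. The call of Uba7 was lost without A2 (adjusted p = 0.115), B2 (0.102), C2 (0.117) or C3 (0.107), and that of Ube2l6 without A2 (0.0534), B2 (0.0509), C2 (0.0573) or C4 (0.0618). Fitted with only the groups compared, Uba7 was not called either (adjusted p = 0.0602).

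Bst2 read 11.37, 11.27 and 11.20 in KO livers on HFD, against 9.96, 10.32 and 10.42 in HET livers on HFD, a change of 1.05 ± 0.12 (adjusted p = 1.97e-04). The 3 members that did not pass were Irf9 and Stat2, whose proteins act together in the response complex, and Mx1. Irf9 read 8.12, 8.0 and 8.04 in KO livers, against 7.85, 7.91 and 7.72 in HET livers, a difference of 0.23 with a 95% interval of -0.06 to 0.52 (adjusted p = 0.373). Stat2 read 8.26, 8.21 and 7.94 in KO livers, against 7.87, 8.0 and 7.78 in HET livers, a difference of 0.26 with an interval of 0.00 to 0.51 (adjusted p = 0.237). Mx1 read 2.17, 2.07 and 1.73 in KO livers, against 1.40, 1.75 and 1.57 in HET livers, a difference of 0.42 with an interval of 0.05 to 0.79 (adjusted p = 0.180). For Stat2 and Mx1 the KO liver C4 lay within the HET range, and for Irf9 the groups were apart by little.

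With age as a linear term, 2 of the 10 members (Usp18, 2.98 ± 0.50, and Irf7, 3.17 ± 0.30) were called on HFD. The members that lost the call came to 1.51 ± 0.58 for Herc6, 1.15 ± 0.31 for Bst2, 0.99 ± 0.69 for Uba7 and 0.99 ± 0.42 for Isg15, and Ube2l6 turned to -0.15 ± 0.35. Centring on the array median moved the median of all genes to -0.24, with 20.5% of called genes higher in place of 72.8%, and a further quantile normalization gave 57.2%. Under each of these scalings 7 of the 10 members were called higher.

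**Figure D2:**
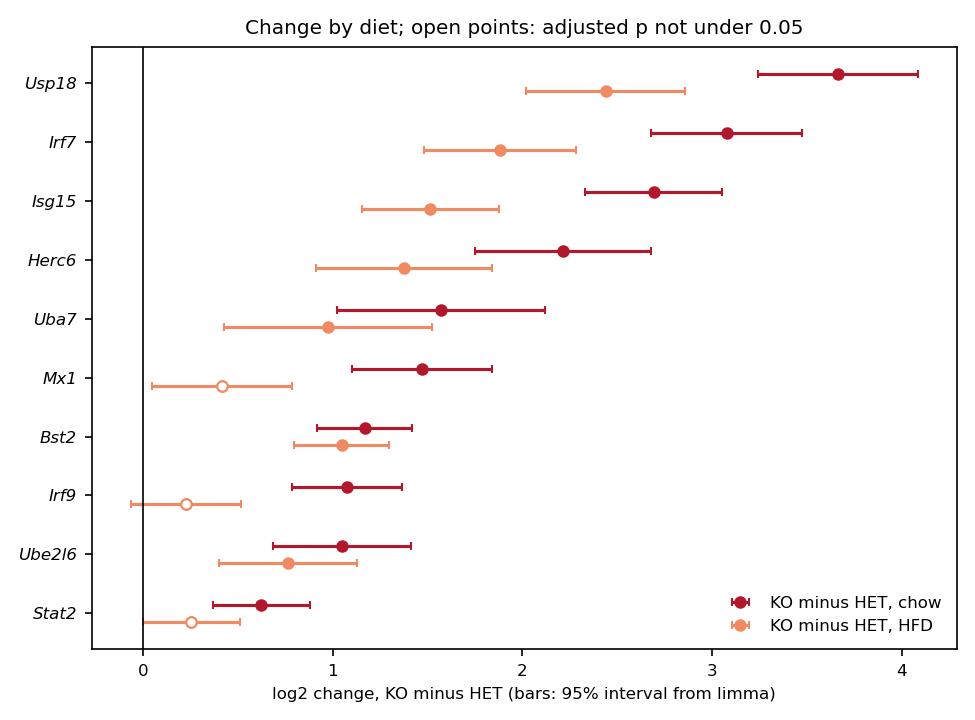
Log2 change of each member, KO minus HET, on chow (dark red) and on HFD (orange), with 95% intervals from limma; filled points have an adjusted p under 0.05 and open points do not. Every HFD point lies left of its chow point, and Irf9, Stat2 and Mx1 are open on HFD.

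Averaged over both diets, all 10 members were called higher in KO than in HET livers, where 6.52% of all genes were. In 8 of the 10, the 6 KO livers all lay above the 6 HET livers, as did 3.13% of all genes, and the exceptions were Stat2 and Mx1. The changes ran from 0.44 ± 0.08 for Stat2 to 3.05 ± 0.14 for Usp18, with a median of 1.19 against -0.02 over all genes. The age term left 2 called, Usp18 (4.02 ± 0.83) and Irf7 (4.77 ± 0.50), and turned Ube2l6 to -0.73 ± 0.59.

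HFD against chow was compared within each genotype. HET mice were 30 to 30.4 weeks old on HFD and 24 to 26.4 weeks old on chow. KO mice were 35.3 weeks old on HFD and 38.9 weeks old on chow. Diet and age therefore cannot be told apart here. In HET livers 0 of the 10 members were called, where 0.0496% of all genes were called higher. The difference was positive for 9 of 10 members and for 11191 of 22180 genes. For 5 members the unadjusted p was under 0.05 in the higher direction, a rule met by 4.78% of all genes, and 3 members (Usp18, Irf7 and Irf9) lay wholly above chow on HFD, as did 6.75% of all genes. Irf9 had the smallest p of them, with a change of 0.49 ± 0.13 (adjusted p = 0.191), and Usp18 differed by 0.64 ± 0.19 (adjusted p = 0.254). Without HET array B2, Herc6 was called higher on HFD (0.85, adjusted p = 0.0300). The fit with age as a linear term called Irf7 higher on HFD in HET livers (1.68 ± 0.27, adjusted p = 0.0105).

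In KO livers the differences between the diets ran the other way for 8 of 10 members. Mx1 was called lower on HFD, at 2.17, 2.07 and 1.73 against 3.06, 3.07 and 3.52 on chow, a change of -1.23 ± 0.17 (adjusted p = 0.0131). This was the only member called, where 0.108% of all genes were called lower and 0.207% higher. It was not tested once genes under the median of all probe sets were left out, and its adjusted p was 0.0653 in a fit of only the groups compared. With age as a linear term Mx1 was not called (-1.43 ± 0.34, adjusted p = 0.0862) and Irf7 was called in its place (-1.54 ± 0.22, adjusted p = 0.0157). For 6 members the KO values on HFD lay wholly below those on chow, as did 9.68% of all genes, and 6 members had an unadjusted p under 0.05 in that direction, a rule met by 4.95% of all genes. Isg15 differed by -0.71 ± 0.17 (adjusted p = 0.106), Irf7 by -0.64 ± 0.18 (adjusted p = 0.198) and Usp18 by -0.58 ± 0.19 (adjusted p = 0.270). Bst2 and Ube2l6 differed by 0.03 ± 0.12 and 0.04 ± 0.17, with 95% intervals of -0.22 to 0.28 and -0.33 to 0.40.

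The interaction tests the diet dependence of the genotype effect directly, as the KO minus HET change on HFD less that on chow. It was negative for 10 of 10 members and for 11059 of 22180 genes, and no member passed: limma called 0 of the 10, where 0.00451% of all genes were called negative and 0.0316% positive. At an unadjusted p under 0.05, 7 members were negative, and so were 4.6% of all genes. Isg15 came to -1.18 ± 0.24 (adjusted p = 0.124), Usp18 to -1.22 ± 0.27 (adjusted p = 0.163), Irf7 to -1.19 ± 0.26 (adjusted p = 0.157) and Mx1 to -1.05 ± 0.24 (adjusted p = 0.174). Among the regulators, Irf9 came to -0.85 ± 0.19 (adjusted p = 0.159) and Stat2 to -0.37 ± 0.17 (adjusted p = 0.492). Bst2 had the smallest interaction, at -0.12 with a 95% interval of -0.48 to 0.23. The KO mice on chow were also older than those on HFD, and the age gap to HET differed between the diets. With age as a linear term, Irf7 alone was called (-3.22 ± 0.46, adjusted p = 0.0104).

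Liver by liver, the members were described by their mean, although between the diets they did not all move in the same direction. The mean of the 10 members, taken as the difference from the HET chow mean, was 1.78, 1.83 and 1.97 in KO livers on chow, -0.03, 0.03 and 0.00 in HET livers on chow and -0.19 and -0.07 in WT livers. On HFD it was 1.52, 1.46 and 1.33 in KO livers and 0.28, 0.53 and 0.23 in HET livers. Thus every KO liver stood above every HET and WT liver, and the KO livers on HFD stood between the KO livers on chow and the rest. Among KO livers on HFD, C4 had the lowest value for 7 of the 10 members. Among KO livers on chow, I1 had the highest for 6.

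The genes most like the members over the 14 arrays, by Pearson correlation with the mean of the 10 scaled members, were Dhx58 (r = 0.987), Rtp4 (0.986), Parp12 (0.981), Ifit1 (0.981), Oasl2 (0.978), Xaf1 (0.978), Ddx60 (0.978) and Rnf213 (0.977). The members' own correlations with that mean, of which each is a part, were 0.824 (Mx1) to 0.982 (Isg15), and the median over all other genes was -0.04. These values describe arrays that share groups, so a gene that differs between KO and the other livers scores high. After the group means were taken out, none of these 8 genes was among the 8 most correlated. Their own correlations were then 0.285 (Oasl2) to 0.652 (Rtp4), within the range of the members, 0.167 (Isg15) to 0.865 (Mx1).

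The rest of the pathway was described with gene lists, ordered from signal to response. In KO against HET livers 1.44% of all genes were called higher and 0.478% lower on chow. On HFD 5.5% were called higher and 2.06% lower. Of 19 interferon ligand genes measured, 0 were called in KO against HET livers on chow, and on HFD, where 2.06% of all genes were called lower, 1 was: Ifng, interferon gamma, by -0.64 ± 0.17 (adjusted p = 0.0403), at 1.93 ± 0.10 in KO livers and 2.57 ± 0.30 in HET livers (SD, n = 3 each). The median change of the list on chow was 0.03. In KO livers on chow 13 of the 19 ligands averaged less than the highest array median, so their levels were near the floor of the arrays. On HFD 14 of the 19 did so in KO livers. There Ifng averaged less than every array median (2.21 to 2.30), so its call rests on values near that floor. Ifnb1, interferon beta, was at 1.24 ± 0.15 in KO livers on chow and 1.13 ± 0.10 in HET livers on chow (SD, n = 3 each).

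Of 6 interferon receptor chains, 0 were called on chow. There all 6 changes were above 0 with a median of 0.21, and 4 were higher with no overlap, as were 9.59% of all genes. Among the 6, Ifnlr1 averaged less than the array medians, at 1.52 ± 0.23 in KO livers on chow (SD, n = 3). On HFD 2 were higher: Il10rb, a chain of the interferon lambda receptor, by 0.66 ± 0.14 (adjusted p = 0.0112), and Ifngr2, a chain of the interferon gamma receptor, by 0.64 ± 0.17 (adjusted p = 0.0351). Ifnar1, a chain of the type I receptor, was at 8.79 ± 0.01 in KO livers on chow and 8.69 ± 0.05 in HET livers on chow (SD, n = 3 each). Of 13 other JAK, STAT and IRF genes, 0 were called on chow (median change 0.12), and on HFD 1 was lower, Irf2, by -0.58 ± 0.12 (adjusted p = 0.00852). Of 9 negative regulators of cytokine signalling, among them Socs1, which inhibits JAK kinases, 0 were called on either diet.

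Other type I interferon-stimulated genes moved with the members: 25 of 27 were higher in KO than in HET livers on chow and 23 of 27 on HFD, with 0 lower on either diet and median changes of 1.56 and 1.16. Oasl2, a relative of the oligoadenylate synthetases, rose by 4.05 ± 0.27 (adjusted p = 5.49e-06), Xaf1 by 2.54 ± 0.16, Dhx58, a helicase of the RNA sensing pathway, by 2.34 ± 0.17 and Rtp4 by 2.27 ± 0.16. Ifit3 and Ifit3b were the 2 that did not pass on chow, at 1.39 ± 0.39 (adjusted p = 0.108) and 1.19 ± 0.31 (adjusted p = 0.0746). Of their promoter windows, 11 of 25 (44%) held the response element. So did 11 of 20 ligand windows (55%), though no ligand was called higher, and 4 of 8 windows of genes induced chiefly by interferon gamma (50%). The share was 10.5% for JAK, STAT and IRF genes and 14.3% for the negative regulators. It was 0% for receptors, for relatives of the ISG15 enzymes and for other ubiquitin-like modifiers. The list of other type I interferon-stimulated genes was chosen with earlier results of these livers known, so its direction is no independent evidence.

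Of 13 genes induced chiefly by interferon gamma, 3 were higher on chow: the GTPases Igtp (1.75 ± 0.27, adjusted p = 0.00453), Irgm2 (0.88 ± 0.19, adjusted p = 0.0337) and Iigp1 (0.92 ± 0.20, adjusted p = 0.0377). The median change of this list was 0.36 on chow and 1.05 on HFD. On HFD 7 of 13 were called higher, where 5.5% of all genes were. They included Igtp (1.17, adjusted p = 0.0193) and Ciita, the master regulator of MHC class II genes (0.68, adjusted p = 0.0240). The relatives of the ISG15 enzymes did not move together. Of 8 measured, 1 was called on chow, Trim25, a ligase for ISG15 and ubiquitin (0.64 ± 0.13, adjusted p = 0.0266), and 0 on HFD, with a median change of -0.01 on chow. Among 27 genes of other ubiquitin-like modifiers, such as SUMO, NEDD8 and UFM1, 1 was called on each diet. It was Ubd, which codes for the ubiquitin-like FAT10, at 7.03 ± 0.54 in KO livers on chow and 3.26 ± 0.03 in HET livers on chow, and at 8.06 ± 0.85 in KO livers on HFD and 3.11 ± 0.30 in HET livers on HFD (SD, n = 3 each). The median change of that list on chow was -0.04.

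**Figure D3:**
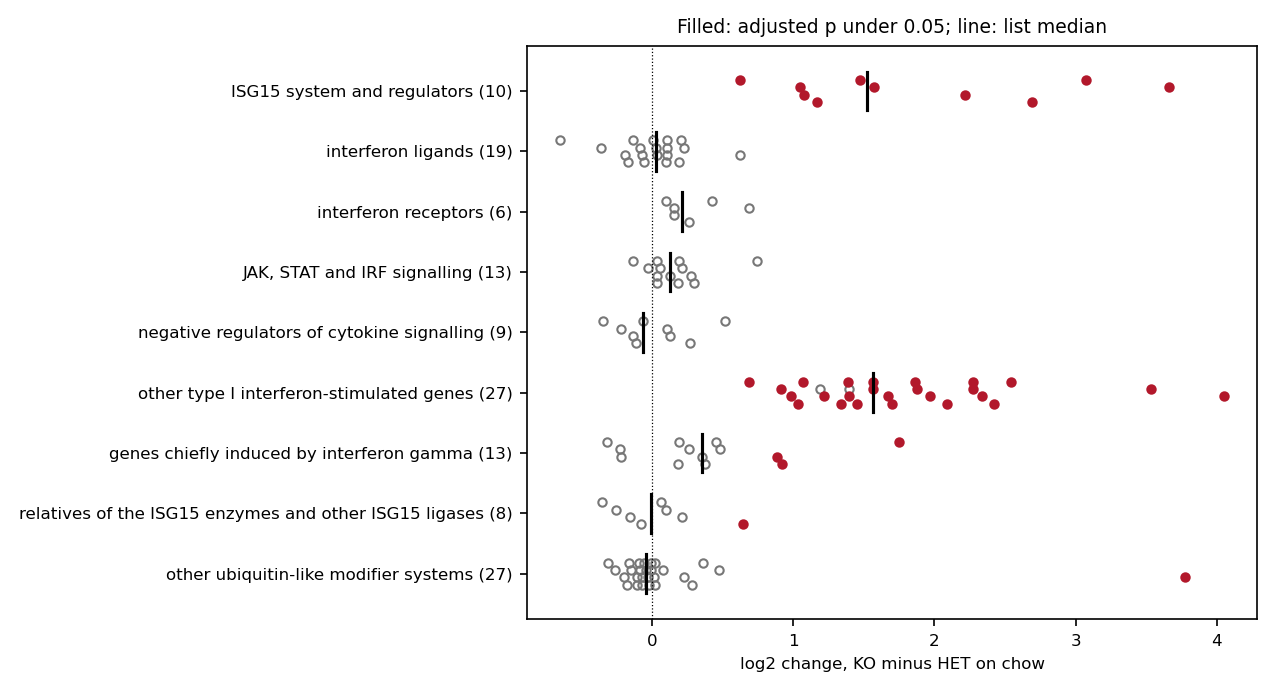
Log2 change, KO minus HET on chow, of the members and of each gene in the 8 pathway lists, with the number of genes in brackets; filled points have an adjusted p under 0.05 and the black bar is the list's median. The members and the other type I interferon-stimulated genes lie to the right of 0, as do the 6 receptors, with no filled point; ligands and signalling genes lie on both sides of 0 with no filled point.

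Whole liver holds several cell types, and in bulk RNA more cells of a type and more RNA per cell cannot be told apart. All 9 markers of recruited monocytes and macrophages had changes above 0 in KO against HET livers, with medians of 1.42 on chow and 1.81 on HFD. On chow 3 of 9 were higher in KO than in HET livers: Cx3cr1, a chemokine receptor (2.61 ± 0.17, adjusted p = 3.25e-06), Ly6c2 (2.63 ± 0.36, adjusted p = 0.00185) and Trem2 (1.42 ± 0.23, adjusted p = 0.00602). On HFD 6 of 9 were called higher, where 5.5% of all genes were. The summed linear intensity of the 9 was 327 to 550 in KO livers and 201 to 362 in HET livers on chow, ranges that overlap, and 690 to 703 in KO livers and 192 to 282 in HET livers on HFD. None of the 9 averaged less than the array medians in KO livers. This sum was higher in every KO liver on HFD than in every KO liver on chow. On the log2 scale used for the members' mean, the mean of the 9 markers overlapped between these groups. It was 5.06 to 5.61 in KO livers on HFD and 4.41 to 5.32 in KO livers on chow. In KO livers the median change of these markers, HFD minus chow, was 0.56, against -0.33 for the members. The part of these cells in the members' changes was not tested.

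Plasmacytoid dendritic cells are known as strong producers of type I interferon. Of their 8 markers, 0 were called on chow and 2 were higher on HFD, Siglech (1.52, adjusted p = 4.04e-04) and Spib (0.94, adjusted p = 0.00455). Their summed intensity was 152 to 190 in KO livers and 146 to 151 in HET livers on chow, and 192 to 283 in KO livers and 130 to 176 in HET livers on HFD. In KO livers on chow 4 of the 8 averaged less than the array medians. Resident Kupffer cell markers had 1 of 9 lower on chow (0.478% of all genes were), Timd4 (-1.52 ± 0.22, adjusted p = 0.00281), and 2 lower on HFD, Timd4 and Cd163. Of 10 hepatocyte markers, 0 were called on chow and 4 were lower on HFD (2.06% of all genes were), Cps1 (-0.53, adjusted p = 0.00433), Apoa1, Hnf4a and Apob. Of 13 T, B and NK cell markers 0 were called on chow and 1 was higher on HFD, Ncr1. Neutrophil markers (7) and cholangiocyte markers (5) had 0 called on either diet. Endothelial markers (8) had 0 called on chow and 1 lower on HFD, Stab2. Stellate cell markers (8) had 1 lower on chow, Lrat, and on HFD 1 higher, Col1a1, and 1 lower, Reln. Whether these shifts bear on the members was not tested.

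**Figure D4:**
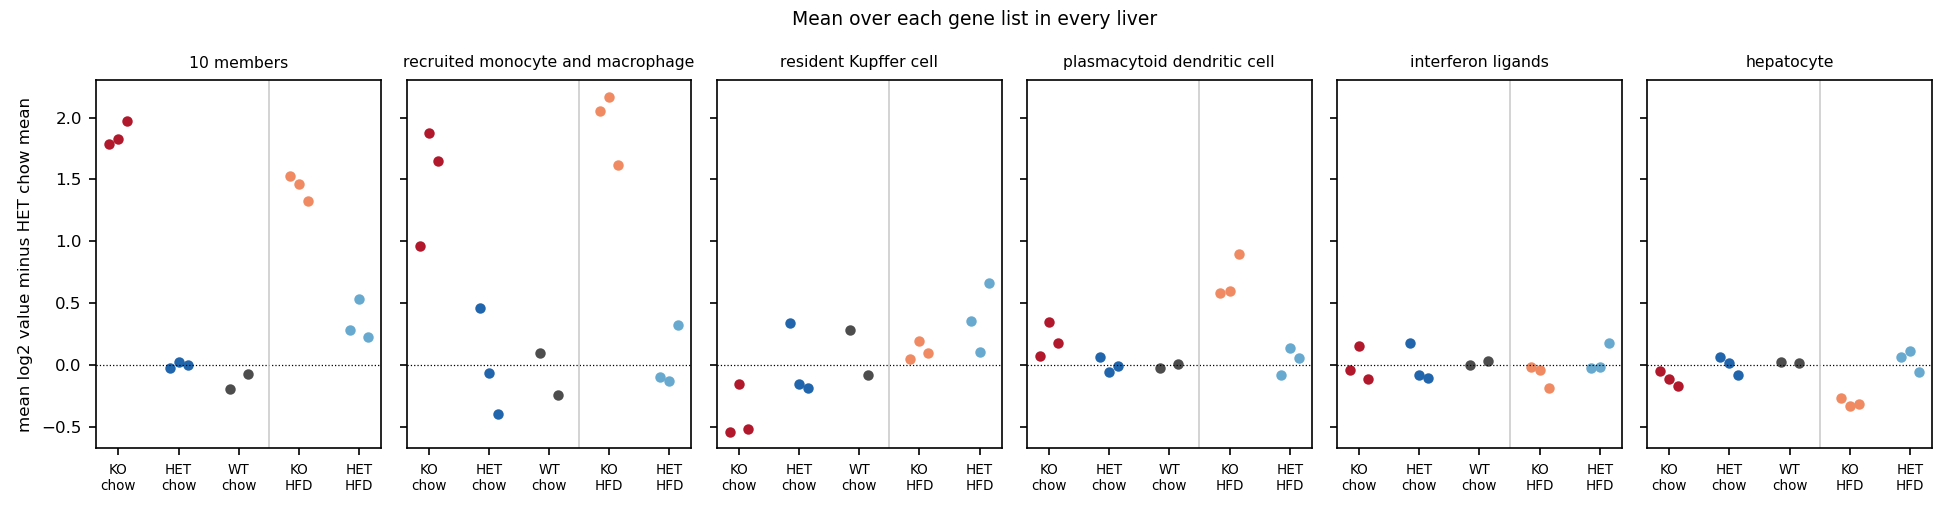
Mean log2 intensity over the 10 members and over 5 other gene lists in every liver, as the difference from the HET chow mean; 1 point per liver, and the grey line divides chow from HFD. The members are highest in KO livers on chow (1.78 to 1.97), the recruited monocyte and macrophage list is high in KO livers on both diets, and the ligand list shows no gap between the groups.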

How the data were processed

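Liver RNA was measured on 14 arrays in 5 groups. Per the labels, 400 ng of RNA was labelled with the Affymetrix WT Plus kit. The authors deposited log2 intensities made with RMA (background correction, quantile normalization, 1 summary per probe set); the submitters' processing notes name RMA and limma with no version, and the sources used here do not say whether batches were adjusted. Of 41345 probe sets, 23521 carried 1 gene symbol in the platform annotation, 1814 several and 16010 none; those with 1 symbol were tested, and the brightest on average was kept per gene, for 22180 genes at any level. All 14 arrays entered 1 linear model with a mean for each group in limma 3.58.1 in R 4.3.3 (9 residual and 3.83 prior degrees of freedom), with 8 contrasts, two-sided tests and Benjamini-Hochberg adjustment within each contrast; the threshold for a call was an adjusted p under 0.05. The fit was tested on simulated data.

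The members and gene lists were chosen with earlier results of these data known. Named genes are the members, Lmna, up to 4 genes per list with the smallest p in KO against HET on chow, members of a list called against the others, counts of 5 or fewer, and the 8 most correlated genes; Ifnb1, Ifnar1, Socs1 and Alb were added for their roles. Alternatives were array weights, a trended and robust prior, leaving out dim probe sets, the mean of or all probe sets of a gene, only the groups compared, 2 scalings, the array name's letter as a random block, age, pooled chow controls and each array left out. The labels do not say whether livers share a litter or batch, so p-values measure the spread between these livers, and the number of arrays limits the precision. Probe intensities are not comparable between genes, so levels are compared only within a gene. Promoter windows are from RefSeq, build GRCm38.p6.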

Additional observations from a re-analysis of the deposited data

How the results depend on the processing

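No paired analysis was run, since no letter of the array names occurs in more than 1 group. The labels do not say what the letter and the number stand for. Under array weights, a trended and robust prior, the mean of or all of a gene's probe sets, a further quantile normalization and the array name's letter as a random block (consensus correlation 0.05), the count of members called was that of the report in all 8 comparisons. With age as a linear term 1 member was called in KO against HET on chow, 1 in KO against WT, 2 in KO against HET on HFD, 2 over both diets, 1 in HFD against chow in HET and 1 in the interaction, in place of 10, 10, 7, 10, 0 and 0, and Ube2l6 turned to -1.32, -1.16, -0.15 and -0.73 in the first 4 of these. In HFD against chow in KO the count stayed at 1, with Irf7 in place of Mx1. The cause was not tested. Mx1, the single call of HFD against chow in KO, gave 0 under the filter on dim probe sets, which removes it, and 0 with only the groups compared, a fit of fewer arrays. That fit called 9, 7 and 6 members in KO against HET on chow, KO against WT and KO against HET on HFD. With single arrays left out the counts were 9 to 10 and 7 to 10 in KO against HET and WT on chow, 5 to 7 in KO against HET on HFD, 0 to 1 in HFD against chow in HET, and unchanged in the other 4 comparisons. Over all genes, KO against HET on chow called 426, against 216 with only the groups compared, 670 with pooled chow controls, 201 with age and 199 to 520 with single arrays left out. On HFD it called 1677, against 4458 after centring on the array median, 249 with age and 971 to 1788 with single arrays left out. KO against WT called 367, against 162 with only the groups compared, 124 with age, 670 with pooled controls and 154 to 411 with single arrays left out, and centring made 59.2% of the calls higher in place of 75.2%. Over both diets 2091 were called, against 5965 after centring, with 17.8% higher in place of 69.2% (55.0% after a further quantile normalization), and 211 with age. HFD against chow called 44 in HET and 70 in KO, against 3 and 45 with only the groups compared, 271 and 132 with age, 67 and 221 with array weights, and 13 to 164 and 13 to 119 with single arrays left out; centring made 44.2% of the calls in KO higher in place of 65.7%. The interaction called 8 genes, against 29 with array weights, 206 with age and 0 to 43 with single arrays left out. Between members and alternatives, 763 values kept their direction and call, 36 lost the call, 3 gained one, 4 changed sign as given above, and 6 that were called in neither fit changed sign. Low signal limits Mx1, which was below the array's own median in 11 of 14 arrays, and the interferon ligands, of which 13 of 19 averaged below the highest array median in KO livers on chow.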
